A study of Bos taurus with 12 samples.

Results

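PDE5A, which encodes a phosphodiesterase, and a run of intergenic DNA before it on bovine chromosome 6 were described from a comparison of DNA methylation between 2 groups of bull sperm samples. The members were all listed tiles of chromosome 6 with a start from 5000000 to 6000000, and they numbered 187 of the 7290 tiles in the authors' deposited table. A tile is a window of 500 bp, and tiles start on a grid of 100 bp, so that neighbours on the grid share 400 bp. Of the 187 tiles, 116 formed an intergenic run before the gene, 70 carried the annotation phosphodiesterase 5A, and 1 lay beyond those 70. The region was chosen because of the differences it shows in this table, so every count, size and q below is a description of selected tiles and supports no test.

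The groups were 6 samples labelled low BFI and 6 samples labelled high BFI, all sperm cells of male cattle (Bos taurus), and the labels leave the abbreviation BFI unexplained. Breed, age and treatment are missing from the labels, as is any statement on single bulls or pooled semen. Methylation was read by enzymatic methylation sequencing, in which enzymes convert unmethylated cytosines so that they are read as thymine while methylated cytosines stay cytosine. For each tile the table gives a p-value, a q-value (the authors' adjusted p-value) and the difference between the groups, read here as percentage points of methylation. It does not say which group was subtracted, so a negative sign is reported as deposited and neither group is called the more methylated. There are 0 columns for single samples, the depth is unknown, no spread between samples could be computed, and the label sperm could not be checked against markers.

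PDE5A hydrolyses cyclic GMP, the second messenger that guanylate cyclases make in response to nitric oxide and natriuretic peptides. By removing cyclic GMP it limits the activity of cyclic GMP-dependent protein kinase, and in smooth muscle it is the target of sildenafil. Cyclic nucleotides also take part in sperm motility and capacitation, the maturation that sperm undergo in the female tract. Mature sperm are largely silent in transcription, and in mammalian sperm most DNA outside CpG islands is methylated.

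All positions are those of the authors' deposited table, for which the submitters' processing notes name the cattle assembly ARS-UCD1.2. The intergenic run covered chr6:5433701-5459700, a span of 26000 bp, and each of its tiles was classed as distal intergenic. Its closest annotated feature was not a gene but a CpG island at chr6:5745053-5747267, a CpG-rich stretch of 2215 bp with a deposited observed-to-expected ratio of 0.84. The gap from the last tile of the run to the island was 285352 bp. The tiles of PDE5A covered chr6:5785501-5799900, a span of 14400 bp, and all of them lay inside 1 intron of the gene (ENSBTAG00000024888), deposited at chr6:5781899-5809782 on the plus strand. That intron starts 34631 bp beyond the island, the first PDE5A tile starts 3602 bp into it, and the last ends 9882 bp before its end. The run and the first PDE5A tile were 325800 bp apart, with 0 listed tiles between them and 0 tiles touching the island.

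**Figure D1:**
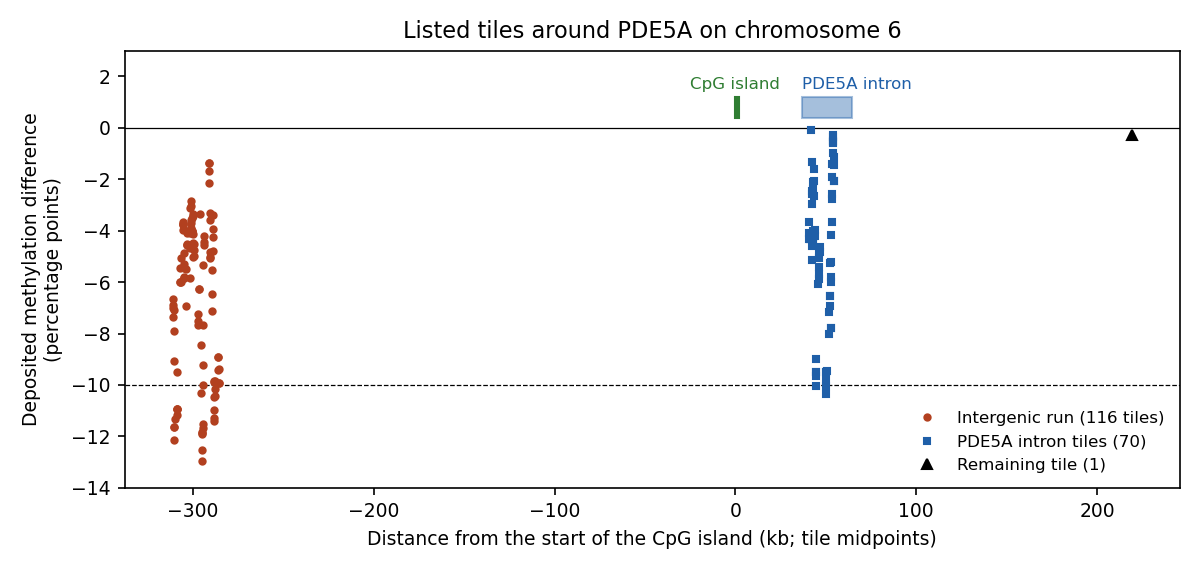
Deposited methylation difference (percentage points, vertical axis) of the 187 tiles against the distance of each tile's midpoint from the start of the CpG island (kb, horizontal axis). Circles are the intergenic run, squares the PDE5A intron tiles and the triangle the remaining tile; the dashed line marks -10, and no listed tile lies between the run and the intron.

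Every tile of the run and of PDE5A had a negative difference. All 116 tiles of the run and 69 of the 70 PDE5A tiles had a deposited q under 0.05. Among all 7290 listed tiles, 71.8% passed that q at any difference, and 55.9% passed it with a negative sign. The deposited q was below the p in 84 tiles of the run and 61 of PDE5A, against 5007 of all 7290 tiles, so a q under 0.05 is often the more lenient of the pair. By p, 116 tiles of the run, 68 of PDE5A and 4798 of all tiles were under 0.05. In what follows, a counted tile is one with a q under 0.05 whose difference, of either sign, was 10 percentage points or more. On this rule 23 tiles of the run (19.8%) and 3 tiles of PDE5A (4.29%) were counted, against 2.78% of all listed tiles in either direction and 2.63% with a negative sign. Over tiles that share no base, 3 of 30 tiles of the run and 1 of 16 of PDE5A (6.25%) were counted, so the gap between their shares was smaller there. The run and PDE5A held 26 of the 27 counted tiles of chromosome 6, and 186 of its 278 listed tiles. Because the region was chosen from the same comparison, nothing is read from these shares beyond their size.

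In the intergenic run the differences spanned -12.9 to -1.37 percentage points, with a median of -5.66 and quartiles at -9.44 and -4.06. Joining tiles that share bases gave 13 stretches of 500 to 2800 bp, which together covered 17400 bp or 66.9% of the span. Counted tiles fell in 4 of the 13 stretches, and after merging counted tiles up to 1000 bp apart they formed 3 regions. These regions lay near the start of the run, past its middle and near its end.

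The first region, chr6:5434401-5436700, held 8 counted tiles, for which the authors' deposited table gives differences of -12.1 to -10.9 percentage points and q-values of 2.36e-168 to 6.33e-93. It begins inside a stretch whose first tile, from 5433701, has -6.66 percentage points in the authors' table as deposited, so the difference was less negative at the outer edge of the run. The second region, chr6:5449501-5450800, held 9 counted tiles and the most negative value of the run. That tile, chr6:5449901-5450400, has -12.9 percentage points and a q of 3.47e-187 in the authors' deposited table. On either side the differences were smaller. The authors' deposited table gives -8.44 percentage points for the tile before the region. It gives -9.22 for the next tile after the last counted one, from 5450401. For the last tile of the stretch, from 5450901, the authors' deposited table gives -4.22. The third region, chr6:5456401-5457400, held 6 counted tiles, with -11.4 to -10.2 percentage points by the authors' deposited table. It contains the smallest q of the 187 tiles in the authors' deposited table, 4.78e-211, at -11.3 percentage points.

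Between these regions the run stayed negative at smaller sizes. The longest stretch, chr6:5443101-5445900, had 23 tiles, none of them counted, and a mean difference of -4.04 percentage points. The smallest differences of the run came in the stretch chr6:5453601-5455000, where the authors' deposited table lists -1.37 percentage points (q = 6.33e-08) for its first 2 tiles. This stretch follows the longest unlisted gap of the run, 2200 bp, and its mean was -3.15 percentage points. The run ended in a stretch of 6 tiles, chr6:5458701-5459700, with no counted tile but a mean of -9.40 percentage points, and its most negative tiles have -9.91 in the authors' deposited table. At this end, then, listing stopped where the difference was still large.

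In the PDE5A intron the differences spanned -10.3 to -0.0842 percentage points, with a median of -4.33 and quartiles at -6.43 and -2.41. The tiles formed 6 stretches of 900 to 3200 bp that covered 9600 bp or 66.7% of the span. Counted tiles fell in 2 of them, and both of these were short.

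The stretch chr6:5789201-5790100 had 5 tiles with a mean of -9.52 percentage points. For its counted tile, from 5789601, the authors' deposited table gives -10.025 percentage points and a q of 3.72e-80. The stretch chr6:5794701-5795700 had 6 tiles with a mean of -9.77 percentage points and 2 counted tiles. In the authors' deposited table these have -10.3 percentage points from 5794701 (q = 5.03e-60) and -10.050 from 5795001 (q = 3.16e-110). The least negative tiles of these stretches have -8.98 and -9.45 percentage points in the authors' deposited table, so the 3 counted tiles stood among neighbours of nearly the same size.

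The other 4 stretches of the intron had smaller differences. The first, chr6:5785501-5786400, had a mean of -4.15 percentage points over 5 tiles. The second, chr6:5786801-5789200, opened with the 1 PDE5A tile that missed the q threshold, for which the authors' deposited table gives -0.0842 percentage points and a q of 0.126. In the same stretch the authors' deposited table gives -5.13 percentage points for the tile from 5787301. The fourth, chr6:5790701-5791900, had 8 tiles with a mean of -5.30 percentage points, and the longest unlisted gap of the intron, 2800 bp, follows it. The last stretch, chr6:5796701-5799900, was graded along its length, though not evenly. The authors' deposited table gives -8.01 percentage points for its first tile and -0.263 for the tile from 5798901. For this second tile the authors' deposited table has a q of 0.0115 beside a larger p of 0.0655, so the tile passes by q and would miss 0.05 by p. In the last 2 tiles the authors' deposited table gives -2.05 percentage points.

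Compared directly, the intergenic run had a median of -5.66 percentage points and the PDE5A intron one of -4.33, a difference of -1.33 in medians and of -1.91 in means. Over tiles that share no base, 30 in the run and 16 in the intron, the medians were -5.49 and -4.98 percentage points, and the difference between them shrank to -0.51. These tiles were taken from the first listed tile onward, and other starting tiles were not tried. Both sets come from the same 12 samples and were chosen on the same values, so the difference was not tested. The ranges overlapped: 68 of the 116 run tiles and 28 of the 70 PDE5A tiles had differences of 5 percentage points or more. Of all 7290 listed tiles, 1124 did. Differences under 2 percentage points made up 2.59% of the run and 18.6% of the PDE5A tiles, against 59.3% of all other listed tiles. At 12 percentage points and above there were 3 tiles of the run (2.59%) and 0 of PDE5A, against 70 (0.985%) of all other listed tiles.

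The count of PDE5A tiles rests on values close to 10 percentage points. The counted tiles just inside that minimum have -10.009 and -10.174 percentage points in the run and -10.025 and -10.050 in the intron, by the authors' deposited table. The closest tiles just outside it have -9.908 in the run and -9.803 in the intron, by the authors' deposited table. From 9 to under 10 percentage points there were 10 tiles in the run and 7 in the intron. With a minimum of 9 percentage points, chosen after the values were seen, 33 tiles of the run (28.4%) and 10 tiles of PDE5A (14.3%) were counted. The share of all listed tiles at that minimum was not computed, so these shares have no background beside them.

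**Figure D2:**
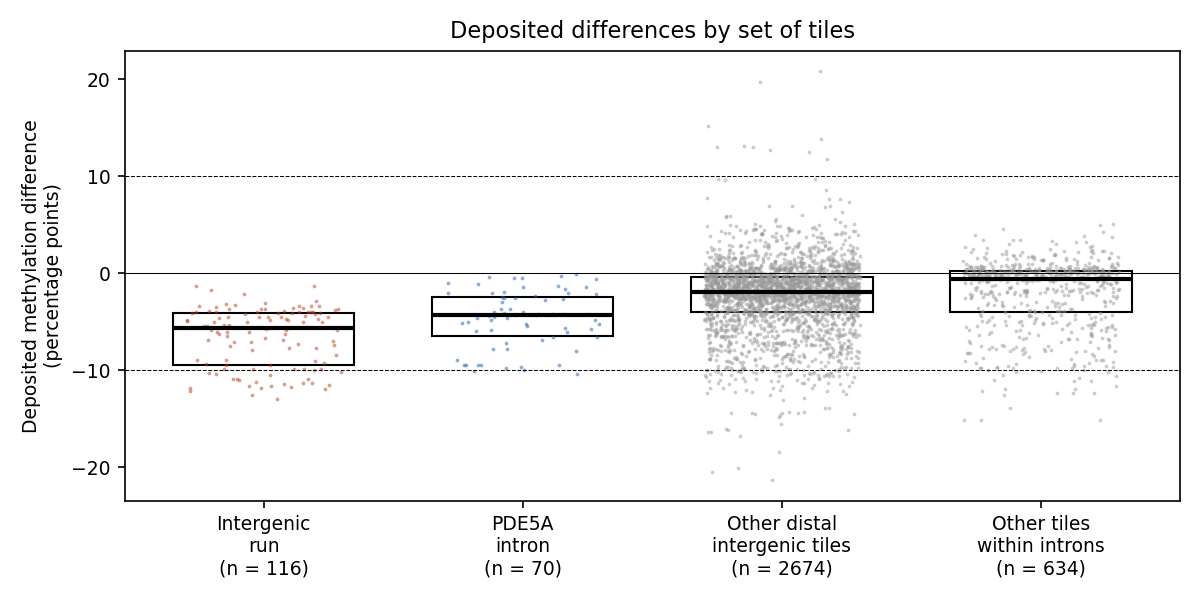
Deposited differences (percentage points) of the intergenic run, the PDE5A intron tiles, the other distal intergenic tiles and the other tiles within introns. Each point is a tile, boxes span the quartiles, thick lines are the medians and dashed lines mark 10 in each direction; the medians of the run and of PDE5A are -5.66 and -4.33, against -1.92 and -0.59 in the 2 remaining sets.

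Set beside tiles of the same kind elsewhere, both sets had more negative medians. The run had a median of -5.66 percentage points, against -1.92 over the 2674 other distal intergenic tiles, of which 80.1% were negative and 4.11% counted. The PDE5A tiles had a median of -4.33, against -0.59 over 634 other tiles within introns, of which 67.4% were negative and 3.47% counted. The share counted in the PDE5A intron, 4.29%, lay near that of other intronic tiles, while its median was more negative. By size without regard to sign, the gaps were narrower. The median size was 5.66 percentage points in the run against 2.23 in the other distal intergenic tiles. It was 4.33 in PDE5A against 1.42 in the other tiles within introns. Those 2 comparison sets also held more negative single tiles, down to -21.3 and -15.1 percentage points. On the rest of chromosome 6 the 91 listed tiles had a median of -0.25 percentage points, 63.7% were negative, and 1 was counted. None of these differences was tested, because the region was selected for its values.

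The run and the intron were also set beside other dense blocks, formed by joining listed tiles wherever gaps did not exceed 50000 bp. The sources used here do not give the rule by which the authors listed tiles. Of these blocks 24 held at least 50 tiles. Between its first and last tile the run had 116 of 256 grid positions listed and the PDE5A intron 70 of 140. They ranked 4 and 2 of the 24 blocks in that share, close to a block on chromosome X with 49.5% and one on chromosome 25 with 42.4%. In sign, 3 of the 24 blocks were negative in every tile. They were the intergenic run, the PDE5A intron and a block of 78 tiles on chromosome 28 with a median of -2.51 percentage points. Ordered by median from the most negative, the run came at rank 2 and the intron at rank 5 of the 24, and a block on chromosome 14 at rank 1 with -6.32 percentage points.

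Neighbouring tiles often had the same or nearly the same values. In the run 13 tiles repeated the p, q and difference of the tile before them exactly, and 103 distinct sets of values remained among 116 tiles. In the intron 6 tiles did so, leaving 64 distinct sets among 70. Between tiles 100 bp apart the difference moved by a median of 0.41 percentage points in the run and 0.38 in the intron. The largest such step was 5.05 percentage points, between tiles of the run with -4.78 (from 5456101) and -9.83 (from 5456201) by the authors' deposited table. That step lies just before the third counted region. The largest step in the intron was 2.15 percentage points, between the tiles from 5787201 and 5787301.

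The deposited q-values followed the size of the difference. Spearman's rho between the size and -log10 of q was 0.91 over the 116 tiles of the run and 0.88 over the 70 of PDE5A. Over tiles that share no base it was 0.89 in both sets. These are descriptions across tiles that share samples and, in the first case, cytosines. At like sizes the median q of both sets was smaller than that of the other listed tiles pooled. Between 10 and 12 percentage points the median q was 1.06e-137 in the 20 tiles of the run and 3.72e-80 in the 3 of PDE5A, against 2.34e-26 in 107 other tiles. Between 2 and 5 percentage points the medians were 6.42e-24 in the run and 2.97e-18 in PDE5A, against 7.30e-06 in 1866 other tiles. Of those other tiles, 9.75% had a q at or below the median of the run. Between 5 and 8 percentage points the order of the sets turned, with medians of 1.34e-37 in the run and 8.15e-45 in PDE5A. Smaller medians in that size class occurred elsewhere. Of 12 blocks with at least 10 such tiles, the PDE5A intron ranked 3 and the run 4, after a block on chromosome 21 with a median q of 0 and one on chromosome X with 2.19e-78.

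Within the intron, q also differed between stretches at like sizes. In the authors' deposited table the tile from 5787601 has a q of 1.81e-48 at -4.48 percentage points, and the tile from 5785701 has 6.65e-17 at -4.33. The number of reads and of CpG sites behind each tile is unknown, and their part in these q-values was not tested. The run supplied 18 of the 100 smallest q-values of the table and PDE5A 0, and none of the 20 smallest came from either.

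**Figure D3:**
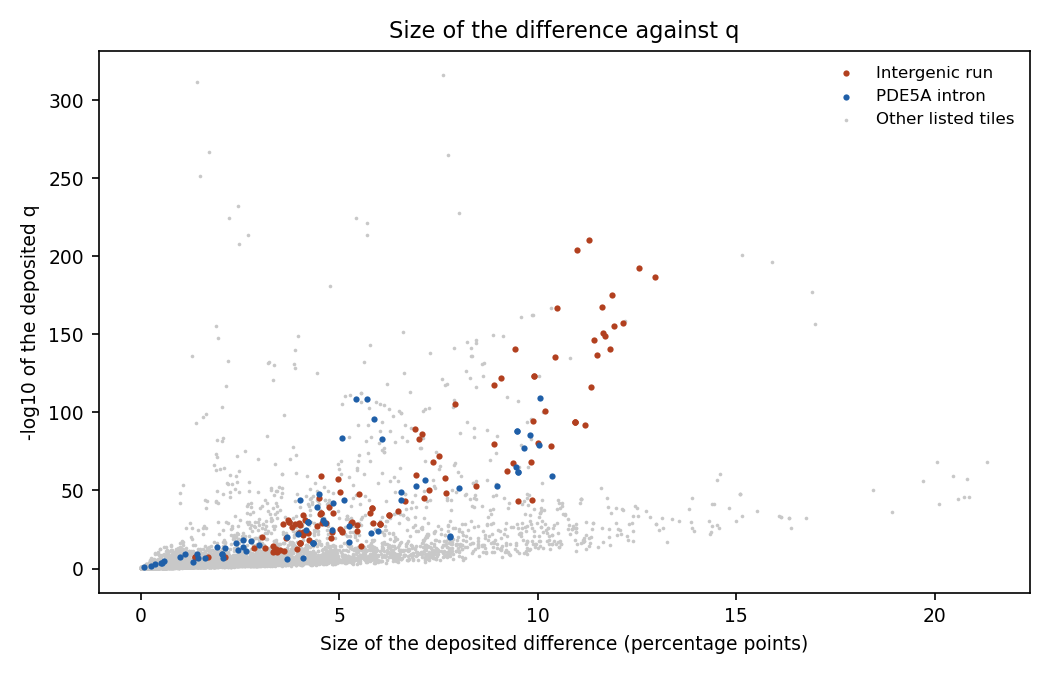
Size of the deposited difference (percentage points, horizontal axis) against -log10 of the deposited q (vertical axis) for tiles of the intergenic run, of the PDE5A intron and for other listed tiles. The 27 other tiles with a deposited q of 0 are left out; at 10 to 12 percentage points the median q is 1.06e-137 in the run, 3.72e-80 in PDE5A and 2.34e-26 elsewhere.

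The remaining tile, chr6:5964001-5964500, lay 164100 bp beyond the last PDE5A tile. It was classed as downstream of an exon on the minus strand (transcript ENSBTAT00000022662, with no gene named), with a gap of 5613 bp. The authors' deposited table lists it at -0.277 percentage points (q = 0.0883), and within the window it is the only tile listed beyond the PDE5A tiles.

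Of 52 other genes of the cyclic GMP pathway and the phosphodiesterase family, 1 could be matched to a listed tile by description. The list held the remaining phosphodiesterases, guanylate cyclases, natriuretic peptides and their receptors, nitric oxide synthases, cyclic GMP-dependent kinases, cyclic nucleotide-gated channels and cyclic GMP exporters. The gene was HCN2, a channel that opens on hyperpolarization and binds cyclic nucleotides, with 2 tiles and 0 counted. For the larger of its differences, within an intron at chr7:43214601-43215100, the authors' deposited table gives -0.373 percentage points and a q of 0.0287. The table holds 540 gene IDs, 19 of them with a counted tile. Of these IDs 77 carry no description and could not be matched to the list, so a member may be among them.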

How the data were processed

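Sperm DNA of 6 low BFI and 6 high BFI samples was profiled by enzymatic methylation sequencing, per the labels. Trimmomatic, Bismark, methylKit and the builds ARS-UCD1.2 and bosTau9 are named in the submitters' processing notes, without versions or settings. The authors deposited a p-value, a q-value, a difference and the closest annotated feature for each tile, per the file headers; the differences were read as percentage points. The sources used here do not say whether these values allow for spread between bulls.

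The groups were not tested anew. Counts, medians, blocks and gaps were computed in Python 3.11.15 with NumPy 2.4.6, pandas 2.3.3, SciPy 1.17.1 and matplotlib 3.10.9, and the routines were tested on simulated data. The members and the gene list were chosen with earlier results of these data known. Named were PDE5A, every gene with a tile in the window, list members in the table, and per set the most negative, smallest-q, edge and threshold tiles; tiles that mark a stretch, step or gradient were added after their values were seen. Genes were matched by deposited description. RefSeq (ARS-UCD2.0) served for names only, and 51 of the 52 list symbols are in it. Alternatives were other minimum differences, other p thresholds, tiles that share no base, other edges of the run, and means.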

Additional observations from a re-analysis of the deposited data

How the results depend on the processing

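All results here are values from the authors' comparison, with no spread between samples, so leaving out a sample could not be tried. No paired analysis was possible because the groups share no replicate numbers and the table has no values per sample. The 23 counted tiles of the run and the 3 of PDE5A came out at the same number with q under 0.01 and with p under 0.05 in place of q. Their q-values in the authors' deposited table were at most 5.03e-60 and their p-values far under 0.05, so neither setting could change these counts. With a minimum of 5 percentage points the run had 68 and PDE5A 28, and with 15 or 20 both had 0. Over tiles that share no base 3 of 30 tiles of the run and 1 of 16 of PDE5A were counted, and the share of all listed tiles was not computed. With a minimum of 9, chosen after seeing the data, the counted tiles were 33 (28.4%) and 10 (14.3%), and the share of all listed tiles was not computed. With its edges set by gaps of at most 10000 or 50000 bp the run held the same 116 tiles, as its longest gap was 2200 bp. Its median of -5.66 percentage points could therefore not change. It was -5.49 over tiles that share no base, and the mean was -6.60. For PDE5A the median of -4.33 became -4.98 and the mean was -4.69. The difference between the sets, -1.33 in medians, became -0.51 over tiles that share no base and -1.91 in means. Without the depth of each tile, no precision can be given for these values.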
